A study of Drosophila melanogaster with 3 samples.

Results

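The nuclear genes for aminoacyl-tRNA synthetases were examined for binding of the zinc finger protein CG1602 in Drosophila melanogaster embryos. Members were all genes of the dm6 annotation whose symbol is 1 or 2 amino acid codes in the long form (Ala, Arg and so on) followed by RS, with or without the suffix -m, and 33 of 17947 annotated genes met this rule. Of these, 18 carried no suffix and encode cytoplasmic enzymes by name, and 15 carried -m and encode mitochondrial enzymes by name. All 33 are protein-coding. The phenylalanine enzyme of the cytoplasm, whose subunit genes are written alpha-PheRS and beta-PheRS, lies outside the rule and is given separately.

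Each synthetase joins 1 amino acid to its matching tRNA, using ATP, and so supplies the ribosome. Cytoplasmic and mitochondrial ribosomes use separate sets of charged tRNAs, and the mitochondrial enzymes are encoded in the nucleus and imported. The enzymes fall into class I and class II, which have unrelated catalytic folds, and in animals several cytoplasmic enzymes sit together in a multi-synthetase complex. In humans, a single gene supplies both compartments with the enzymes for glycine and lysine. The groups here go by the suffix alone, so a member that did the same would count as cytoplasmic.

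The data come from ChIP-seq of whole embryos of mixed sex, collected 0 to 24 h after laying, from a transgenic line that stably expresses CG1602 with GFP fused to its C terminus. An antibody against GFP was used for the precipitation, and 3 biological replicates form the only group, so there is no second condition. The promoter that drives the fusion protein is not given in the sources used here, and peaks from whole embryos cannot be assigned to a cell type. The lists for dm6 hold 17580, 27164 and 18386 regions in replicates 1, 2 and 3, 16640 regions from the pooled replicates and 4599 peaks that passed the authors' threshold on the irreproducible discovery rate (IDR). Weak regions that count as background are part of every list except the IDR list. The 4599 IDR peaks were the strongest 4599 of the pooled regions, so one rank describes a region in both lists. Read depth is unknown here, and signal values are those of the authors, relative to the control, in a unit the sources do not state. A gene is called bound below where the summit of a region lies within 500 bp of one of its transcription start sites (TSS). Where no list is named, bound and unbound refer to the IDR list.

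Cytoplasmic synthetase genes were bound in 9 of 18 cases in the IDR list (50%, 95% Clopper-Pearson interval 26.0 to 74.0%), and mitochondrial ones in 3 of 15 (20%, 4.33 to 48.1%). Among all protein-coding genes 20.4% were bound, and among all annotated genes 17.1%. In this list the share of the cytoplasmic enzymes was above that of all protein-coding genes, and the share of the mitochondrial enzymes was close to it. The mitochondrial count rests on few genes: it was 1 (ProRS-m) without replicate 2 or without replicate 3, when a peak had to overlap the 4599 strongest regions of both other replicates, and 0 among the 2299 strongest peaks. In the pooled list 12 of 18 cytoplasmic (66.7%, 41.0 to 86.7%) and 6 of 15 mitochondrial genes (40%, 16.3 to 67.7%) were bound, against 40.7% of protein-coding genes. The intervals of both classes overlap in both lists, and they cover counting error over genes only. The difference between the classes was not tested over genes.

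**Figure D1:**
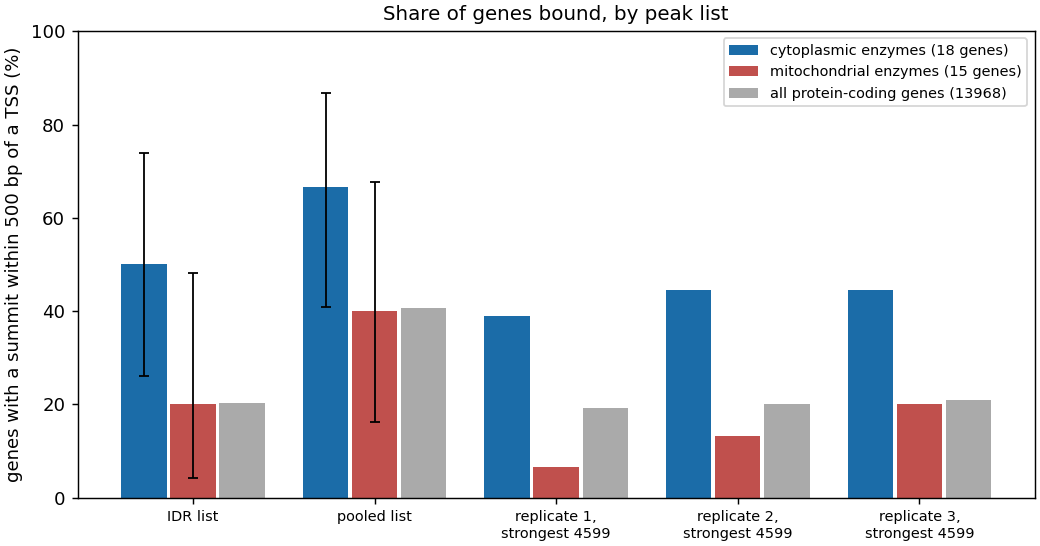
Percent of genes with a summit within 500 bp of a TSS (vertical axis) in the IDR list, the pooled list and the 4599 strongest regions of each replicate, for 18 cytoplasmic enzymes, 15 mitochondrial enzymes and 13968 protein-coding genes; error bars on the IDR and pooled bars are 95% Clopper-Pearson intervals. The cytoplasmic bar is the highest in every list (50% in the IDR list), and the mitochondrial bar is at 20% there.

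The same order was seen in each replicate. Among the 4599 strongest regions of replicate 1, 7 cytoplasmic genes (38.9%) and 1 mitochondrial gene (6.67%) were bound, against 19.2% of protein-coding genes. In replicate 2 the counts were 8 (44.4%) and 2 (13.3%), against 20.2%, and in replicate 3 they were 8 (44.4%) and 3 (20%), against 21%. The cytoplasmic share was 42.6% ± 3.21 and the mitochondrial share 13.3% ± 6.67 (SD, n = 3 replicates each). Their difference of 29.3 ± 4.21 percentage points had the same sign in 3 of 3 replicates. An exact two-sided permutation test that flips the sign of each replicate's difference gave p = 0.25, the smallest value that 3 replicates allow. The replicates share 1 control, and this test covers the spread between replicates, not between genes.

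The strongest site was at SerRS, the serine enzyme, with a signal of 677.9 and rank 203 of the pooled list. It ranked 219, 211 and 205 in replicates 1, 2 and 3, so its rank was close in the 3 lists although these differ in length. Its summit (2L, 3037401) lay 2 bp downstream of the upper TSS of SerRS (FBgn0031497, 3035493 to 3037403, minus strand), in the 5′ UTR of SerRS and an intron of CG17260, whose TSS lies 8 bp from that of SerRS on the opposite strand. It was the only one of the 12 strongest summits at bound members that was not upstream of the TSS.

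IleRS, the isoleucine enzyme (FBgn0027086, 3L, 22288665 to 22292810, plus strand), followed with a signal of 634.9 and rank 235. The peak ranked 250, 181 and 288 in the replicates, and its summit lay 166 bp upstream of IleRS and 304 bp from the TSS of Hem, in intergenic sequence. GluProRS, which encodes the glutamate and proline enzymes as one fused protein (FBgn0005674, 3R, 23952136 to 23958391, minus strand), had a signal of 586.7 and rank 289, with replicate ranks of 239, 399 and 298. This summit lay midway between divergent genes, 131 bp from GluProRS and 129 bp from AP-1sigma, which encodes a clathrin adaptor subunit. The called region ran from 23958521 to 23958688, so the summit was at its edge on the GluProRS side, and the rest extended towards AP-1sigma. These first 3 sites all lay among the strongest 400 regions in every replicate.

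ThrRS, the threonine enzyme (FBgn0027081, 2L, 12103751 to 12107170, plus strand), had a signal of 393.6 and rank 638. Its replicate ranks of 430, 1677 and 658 spread more widely, with replicate 2 lowest. AsnRS, the asparagine enzyme (FBgn0086443, 2L, 19129469 to 19131954, minus strand), had a signal of 245.7 and rank 1517, with replicate ranks of 1524, 1594 and 1572. Its summit lay 133 bp upstream, between AsnRS and the dynactin subunit gene DCTN6-p27, near which a weaker region (signal 88.7) had a summit of its own. GlyRS, the glycine enzyme (FBgn0027088, 3L, 15095142 to 15097686, plus strand), had a signal of 139.0 and rank 3386, and a second, weaker region (signal 92.0) with its summit 3 bp upstream of the TSS. Its main peak ranked 2927, 4615 and 3956, and replicate 2 thus left it just beyond its own 4599 strongest regions.

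AlaRS, the alanine enzyme (FBgn0027094, 2L, 8378262 to 8381764, minus strand), was the weakest bound member, with a signal of 111.5 and rank 4439. It ranked 6661, 2817 and 7146, so only replicate 2 held it among its 4599 strongest regions. The summit lay 132 bp upstream of AlaRS, in the 3′ UTR of CG13392. The lowest signal in the IDR list was 108.2, and the first member past that edge was PheRS-m, at 94.2.

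The 3 bound mitochondrial genes ranked between 3451 and 3832 in the pooled list. ProRS-m, for proline (FBgn0027082, 3L, 2650161 to 2651850, minus strand), had a signal of 137.2 and rank 3451, with even replicate ranks of 3054, 3282 and 3108. Its summit lay 187 bp upstream but only 51 bp from a TSS of Snup, the gene of the import adaptor snurportin. CG42304, the divergent neighbour of ProRS-m, had a TSS equally near to this summit and was bound as well. ArgRS-m, for arginine (FBgn0037526, 3R, 7887045 to 7890150, plus strand), had a signal of 125.0 and rank 3832. It ranked 5126, 6075 and 2944, and only replicate 3 held it among its 4599 strongest regions. Its summit lay 81 bp upstream of ArgRS-m and 231 bp from CG17816.

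**Figure D2:**
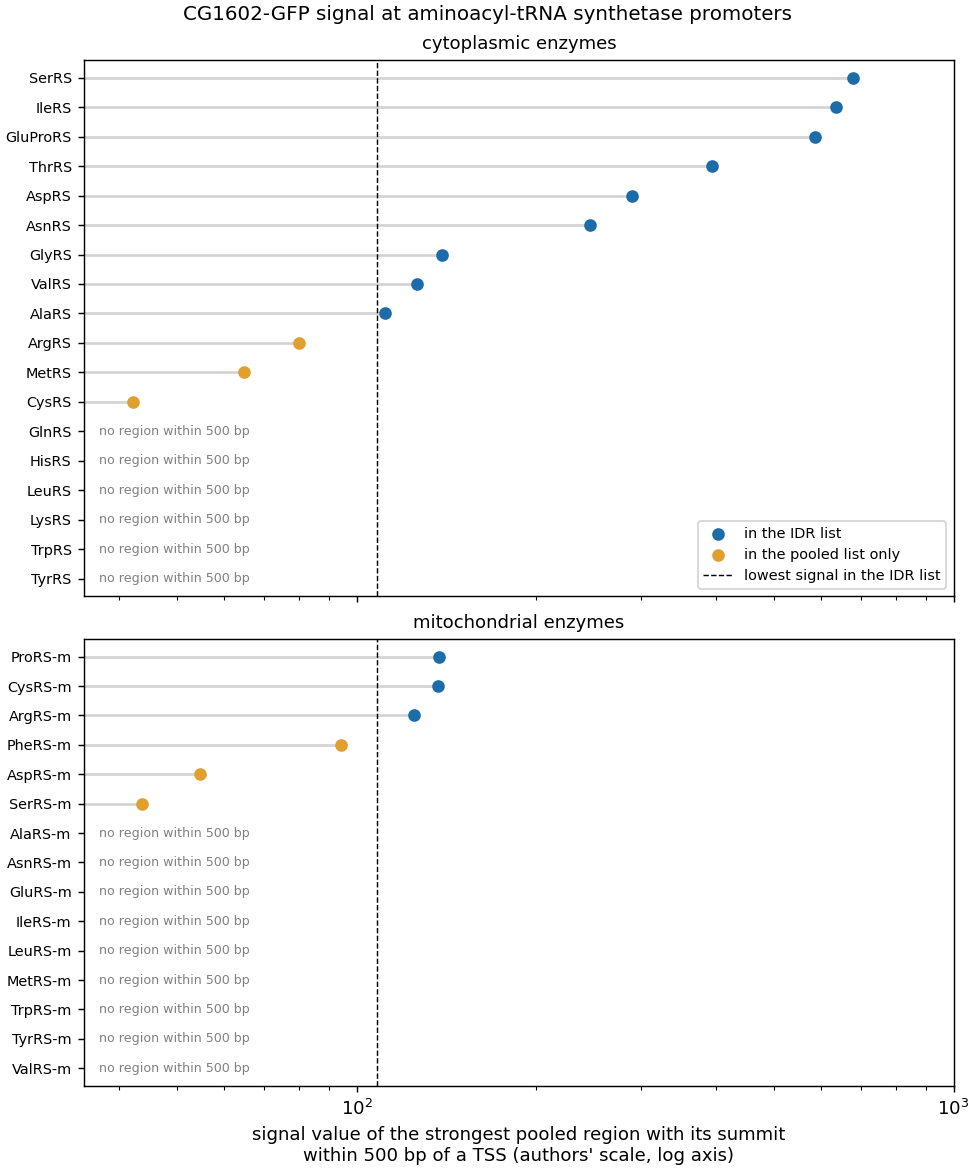
Signal value of the strongest pooled region with its summit within 500 bp of a TSS (horizontal log axis, the authors' scale) for each cytoplasmic (upper panel) and mitochondrial (lower panel) enzyme gene. The cytoplasmic enzymes run up to 677.9 at SerRS, and the strongest mitochondrial one, ProRS-m, is at 137.2; the dashed line is the lowest IDR signal, 108.2.

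Reference sequence (dm6) around 7 of these summits shows how rich in A and T they are. Each line below gives 101 bp on the strand of the member gene, 5′ to 3′, with the summit as base 51, and capitals mark TATAAA on either strand. The stretch at SerRS is left out because most of it is exon.
IleRS, chr3L:22288449-22288549, plus strand: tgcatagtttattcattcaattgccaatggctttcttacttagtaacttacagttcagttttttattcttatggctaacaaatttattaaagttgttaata
GluProRS, chr3R:23958472-23958572, minus strand: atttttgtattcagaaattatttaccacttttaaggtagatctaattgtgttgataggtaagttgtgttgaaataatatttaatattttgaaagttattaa
ThrRS, chr2L:12103543-12103643, plus strand: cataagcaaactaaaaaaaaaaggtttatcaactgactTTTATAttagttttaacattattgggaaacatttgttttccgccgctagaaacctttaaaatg
AsnRS, chr2L:19132037-19132137, minus strand: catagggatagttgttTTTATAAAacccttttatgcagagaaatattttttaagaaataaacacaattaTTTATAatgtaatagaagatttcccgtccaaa
GlyRS, chr3L:15094889-15094989, plus strand: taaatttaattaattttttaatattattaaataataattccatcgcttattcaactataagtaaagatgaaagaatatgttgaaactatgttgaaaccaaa
ProRS-m, chr3L:2651987-2652087, minus strand: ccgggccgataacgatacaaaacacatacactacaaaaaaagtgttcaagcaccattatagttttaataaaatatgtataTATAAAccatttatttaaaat
ArgRS-m, chr3R:7886914-7887014, plus strand: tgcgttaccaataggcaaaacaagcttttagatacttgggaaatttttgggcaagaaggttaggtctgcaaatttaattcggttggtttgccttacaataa

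GC content in these stretches ran from 17.8% at GlyRS to 36.6% at ArgRS-m. Within 100 bp of the summit, the median GC content was 28.4% over the 9 bound cytoplasmic genes (22.4 to 35.8%) and 27.9% over the 3 bound mitochondrial genes (24.9 to 46.3%), against 33.3% over all 4599 IDR summits. Known promoter words, and the further word CACTGAGA, were searched on both strands in the same windows. The DNA replication-related element TATCGATA was in 0 of the 12 windows at bound members, and in 3.33% of all IDR windows. The core of Motif 1, GGTCACAC, was in 2 (ValRS and ProRS-m), and in 1.74% of all IDR windows. The E-box CAGCTG was in 1 (IleRS; 7.63% of all), the word CACTGAGA in 0 (4.09% of all) and TATAAA in 8 (39.7% of all). In windows from 250 bp before to 50 bp after the gene start, TATCGATA was in 5 of the 33 member promoters (AlaRS, ArgRS, IleRS, TrpRS and PheRS-m) and in 9.36% of those of all protein-coding genes. There CAGCTG was in 16 of 33 and 17.7%, GGTCACAC in 4 of 33 and 7.70%, TATAAA in 18 of 33 and 45.9%, and CACTGAGA in 0 and 1.05%. Of the 16 genes with CAGCTG, GluProRS, IleRS, SerRS and ArgRS-m were bound in the IDR list. Among all members 12 of 33 were bound, and among all protein-coding genes 20.4%. The share bound among all protein-coding genes with CAGCTG was not worked out, and nothing is read from this count. A match is a string of letters and not a measured site.

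The remaining 3 bound members lie on arm 2R. AspRS, the aspartate enzyme (FBgn0002069, 12877004 to 12883168, plus strand), had a signal of 289.5 and rank 1144, with replicate ranks of 1081, 1318 and 1089. Its summit lay 135 bp upstream of an inner TSS of AspRS, in an AspRS intron and the 5′ UTR of Nmda1, 81 bp from a TSS of Nmda1. The outer AspRS start, 38 bp from that of Lfg, had no region within 500 bp. CysRS-m, for cysteine (FBgn0033900, 14159096 to 14161262, minus strand), had a signal of 136.9 and rank 3458, with replicate ranks of 4745, 3093 and 3152. Its summit lay 66 bp upstream, between CysRS-m and O-fut1, which encodes a fucosyltransferase that modifies Notch. ValRS, the valine enzyme (FBgn0027079, 13198850 to 13202709, plus strand), had a signal of 126.1 and rank 3802, with replicate ranks of 7532, 2402 and 3717. Its summit lay 473 bp upstream, just inside the window, and 40 bp from the histone demethylase gene Kdm4B, while a weaker region nearer to ValRS (165 bp upstream) had a signal of 46.3 and was not in the IDR list.

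Of the bound members, 6 of 9 cytoplasmic genes and 0 of 3 mitochondrial genes were in the upper 2299 IDR peaks. The median rank of the bound members was 1144 for the cytoplasmic and 3458 for the mitochondrial genes, against 1838 for the strongest promoter peak of all 2853 bound protein-coding genes. That last median also lies within the upper 2299, and the share of all bound protein-coding genes there was not worked out. The median distance from summit to TSS was 135 bp for the bound cytoplasmic and 81 bp for the bound mitochondrial genes. The bound protein-coding genes had a median of 143 bp upstream. In 6 cytoplasmic genes and 1 mitochondrial gene all 3 replicates had a summit within 500 bp among their 4599 strongest regions. How often this held over all bound protein-coding genes was not worked out.

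**Figure D3:**
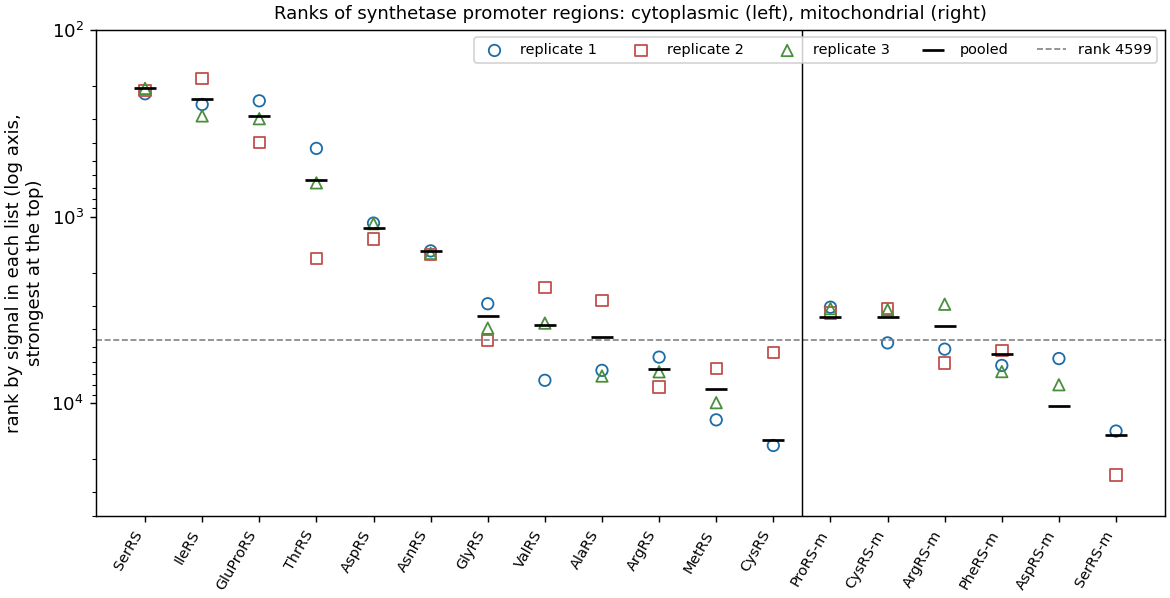
Rank by signal in each list (vertical log axis, strongest at the top) of the strongest pooled region at each of the 18 members bound in the pooled list, cytoplasmic enzymes left of the vertical line and mitochondrial enzymes right of it; symbols are replicates 1, 2 and 3, black bars the pooled list, and the dashed line is rank 4599. SerRS, IleRS and GluProRS stay within the strongest 400 in every replicate, whereas GlyRS, AlaRS, ValRS, ArgRS-m and CysRS-m fall on both sides of the line.

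A further 6 members had only a weak summit near a TSS, in the pooled list but not in the IDR list. ArgRS, the arginine enzyme, had a signal of 80.0 (rank 6532, 149 bp upstream), MetRS, for methionine, 64.8 (rank 8339, 72 bp upstream), and CysRS, for cysteine, 42.3 (rank 15686, 16 bp downstream). PheRS-m had 94.2 (rank 5423, 141 bp upstream), AspRS-m 54.6 (rank 10393, 34 bp upstream) and SerRS-m 43.7 (rank 14795, 422 bp upstream). A region at the TSS was present in all 3 replicates for ArgRS, MetRS and PheRS-m. CysRS and SerRS-m had none in replicate 3, and AspRS-m had none in replicate 2. The median signal of the pooled list was 64.9, so ArgRS and PheRS-m lay above it, MetRS lay close to it, and CysRS, AspRS-m and SerRS-m lay below it.

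No pooled region had its summit within 500 bp of the other 15 members, 6 of them cytoplasmic (GlnRS, HisRS, LeuRS, LysRS, TrpRS and TyrRS) and 9 mitochondrial (AlaRS-m, AsnRS-m, GluRS-m, IleRS-m, LeuRS-m, MetRS-m, TrpRS-m, TyrRS-m and ValRS-m). The nearest to the window was LysRS, with a weak summit 515 bp upstream (signal 54.3) in a coding exon of Hecw. HisRS had one 879 bp downstream of its TSS (71.4), in introns of HisRS and Bx, and ValRS-m one 896 bp upstream (43.0), in a coding exon of CG5653. A strong peak lay 930 bp upstream of LeuRS-m (signal 682.7, rank 197), in an intron of Dhc64C, the dynein heavy chain gene, and 764 bp from a Dhc64C TSS. At the other 11 the nearest pooled summit was between 2878 bp (TrpRS-m) and 18102 bp (MetRS-m) away. Single replicate lists, which hold background regions, did have a summit within 500 bp of some of the 15. These were GlnRS, LeuRS, LysRS, TyrRS, AsnRS-m and GluRS-m in replicate 2 only, TrpRS in replicate 3 only and LeuRS-m in replicate 1 only. The rest had none in any replicate list. The median distance from a member to its nearest pooled summit was 153.5 bp for the cytoplasmic and 930 bp for the mitochondrial genes, against 1266 bp for 13945 protein-coding genes outside Y.

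**Figure D4:**
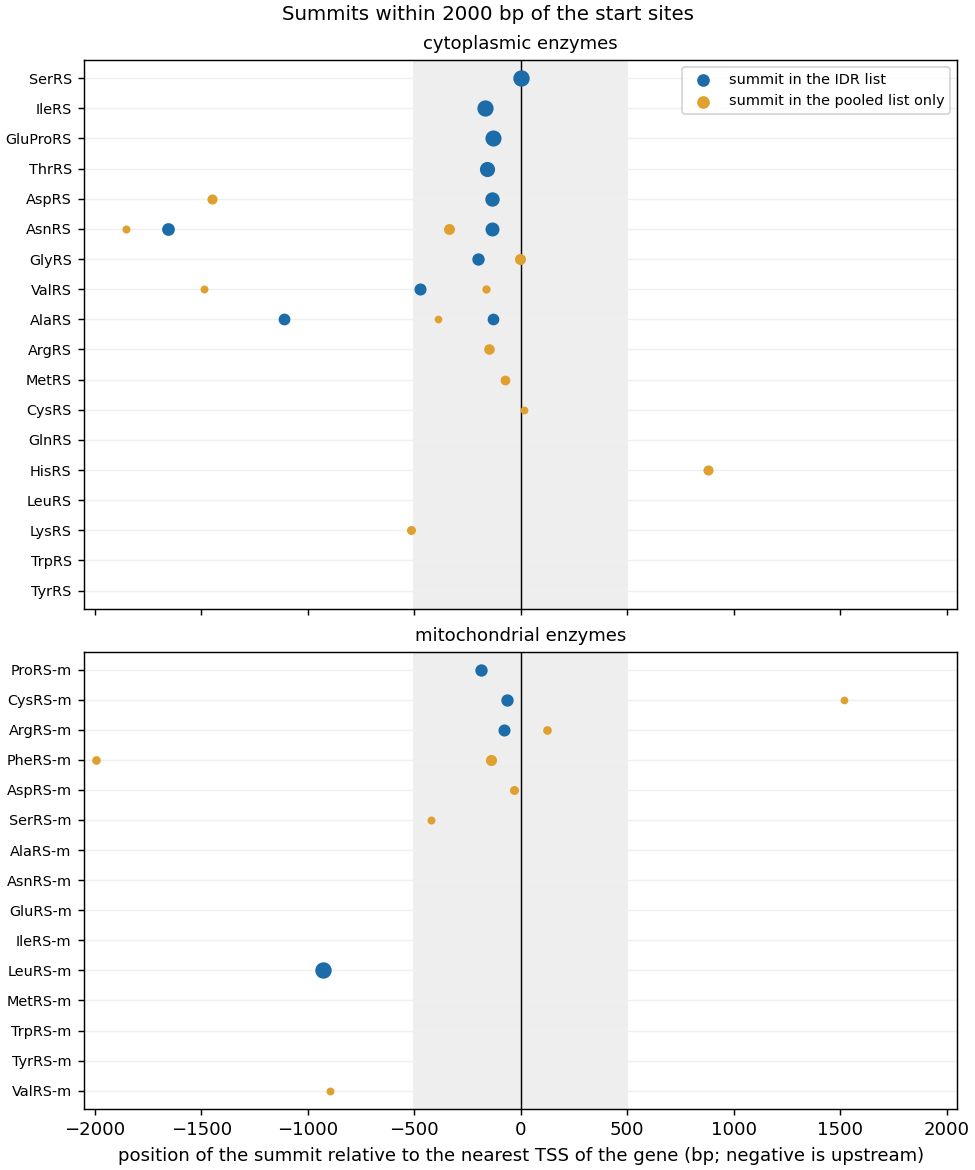
Position of every pooled summit within 2000 bp of the nearest TSS of each member (horizontal axis in bp, negative is upstream), cytoplasmic enzymes above and mitochondrial enzymes below; larger points have a higher signal, and the grey band is the window of 500 bp. Summits at bound members crowd just upstream of the TSS, and the strong point 930 bp upstream of LeuRS-m lies outside the band.

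For 14 amino acids the rule finds both a cytoplasmic and a mitochondrial gene, where GluProRS counts once for glutamate and once for proline. In the IDR list the cytoplasmic gene alone was bound for 7 of them (alanine, asparagine, aspartate, glutamate, isoleucine, serine and valine) and the mitochondrial gene alone for 2 (arginine and cysteine). Both were bound for proline, and neither for leucine, methionine, tryptophan and tyrosine. These counts come from the same calls as the 9 of 18 cytoplasmic and 3 of 15 mitochondrial genes above, against 20.4% of all protein-coding genes. They are not separate evidence, and no test was made over the pairs. At arginine and cysteine the cytoplasmic gene was in the pooled list only. Of the 5 amino acids with no -m gene, glycine and threonine had a bound gene, and glutamine, histidine and lysine did not.

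By structural class, bound genes made up 6 of 8 class II and 2 of 9 class I genes among the cytoplasmic enzymes, with GluProRS, which joins both classes, bound as well. Among the mitochondrial enzymes 1 of 6 class II and 2 of 9 class I genes were bound. Of the 8 cytoplasmic genes whose products are known as part of the multi-synthetase complex in animals, 3 were bound (GluProRS, IleRS and AspRS), against 6 of the 10 other cytoplasmic genes. Over all protein-coding genes 20.4% were bound, which is close to the shares of the class I genes in both compartments (22.2% each) and of the mitochondrial class II genes (16.7%). These counts are small and the differences between them were not tested.

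A divergent neighbour, meaning a gene on the opposite strand whose TSS lies upstream within 1000 bp, was present at 16 of 18 cytoplasmic genes (88.9%) and 7 of 15 mitochondrial genes (46.7%), against 39.3% of protein-coding genes. The difference between these shares was not tested. Among genes with such a neighbour, 8 of 16 cytoplasmic (50%) and 3 of 7 mitochondrial genes (42.9%) were bound in the IDR list, against 36.1% of protein-coding genes of the same kind. Without one, 1 of 2 cytoplasmic and 0 of 8 mitochondrial genes were bound, against 10.3%. The 8 cytoplasmic genes include AspRS, whose peak is not at its divergent start, so 7 of 16 had the peak there. The part of promoter arrangement in the difference between the compartments was not tested.

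Peaks at divergent promoters count for both genes. Of the 23 members with a divergent neighbour, member and neighbour were both bound in the IDR list at 10. The member alone was bound at 1 (AspRS, whose peak is at another TSS), the neighbour alone at 0 and neither at 12. The same counts were not made over all protein-coding genes. A summit between starts less than 500 bp apart lies within 500 bp of both, so nothing about the synthetase genes is read from these counts. Neighbours that were bound included Hem (IleRS), AP-1sigma (GluProRS), the pericentrin-like centrosome gene Plp (GlyRS), Patsas (ThrRS) and DCTN6-p27 (AsnRS). At 4 of the 12 bound members the summit was nearer to another gene than to the member (AspRS, GluProRS, ValRS and ProRS-m). For GluProRS the distances were nearly equal, 131 bp to the member and 129 bp to AP-1sigma. Over all bound protein-coding genes, the strongest promoter peak was nearest to the gene's own TSS in 69.3% of cases.

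Members with several annotated TSS offer more window to a summit. Among the cytoplasmic genes 6 of 7 with 2 or more TSS and 3 of 11 with 1 TSS were bound, and among the mitochondrial genes 0 of 2 and 3 of 13. Over all protein-coding genes, 32.6% of those with 2 or more TSS and 16.0% of those with 1 TSS were bound. The number of TSS thus moved with the cytoplasmic share, and its part in the result was not tested. With only the outermost start of each gene, AspRS was lost and the cytoplasmic count was 8.

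Genes listed as related to the synthetases but outside the rule were bound in 9 of 22 cases in the IDR list, against 20.4% of protein-coding genes. A further 9 were in the pooled list only, which makes 18 of 22 in that list, against 40.7%. This list was chosen with results of these data known, and nothing is read from its share. Of the cytoplasmic phenylalanine enzyme, beta-PheRS was bound (signal 138.5, rank 3395, 56 bp upstream), and alpha-PheRS was in the pooled list only (65.9, 59 bp upstream). The complex proteins AIMP2 and AIMP3 had no region at a TSS, and AIMP1 was in the pooled list only (100.6), as was Slimp (64.5), a paralog of the mitochondrial serine enzyme. Of the amidotransferase that makes glutaminyl-tRNA in mitochondria, GatA (274.5, with P5cr nearest) and GatC (123.0, with PolG2 as near) were bound and GatB had no region. The elongation factor genes eEF1gamma (287.1), eEF1alpha1 (219.4), mEFTu2 (133.0) and mEFTu1 (123.6) were bound, which carry or help to carry charged tRNAs to the ribosome. The other 5 elongation factor genes of the list were in the pooled list only, namely eEF1alpha2 (61.1), mEFG1 (56.7), eEF1beta (54.1), mEFTs (47.2) and eEF1delta (43.4). The gene of the kinase Gcn2, which senses uncharged tRNA, was bound (142.8), with Ugt35D1 nearest to the summit. Thor, the gene of a translation inhibitor, was bound as well (115.1), and crc, the ATF4 gene, was in the pooled list only (81.0). The remaining gene of the list, Dtd, had no region at a TSS.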

How the data were processed

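ChIP-seq regions of 3 biological replicates of 1 group, CG1602-GFP embryos, were used. The authors deposited lists for dm6 and dm3; per the file headers each replicate list came from that replicate's alignments and 1 shared control, the pooled list from all 3, and the IDR list from these lists. Neither the aligner and caller nor the IDR threshold is given in the sources used here. Each signal value is as the authors deposited it, relative to the control on a scale not given, and was used only to rank regions within a list. Depth is unknown. The dm3 lists were not used.

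Summits were column 2 plus column 10, written 1-based. Genes and TSS came from Ensembl release 115 on the arms of chromosomes 2, 3, 4, X and Y, without pseudogenes and transposable elements, and sequence from RefSeq's copy of the same assembly; all regions lay within its arms. Replicates were compared on their 4599 strongest regions. Replicate ranks are of the strongest region that overlaps the pooled one by at least 1 bp. Every member is accounted for, in full where a pooled summit lay within 500 bp. Members and lists were chosen with earlier results of these data known. Of the names listed for related genes, 22 were found and 4, of which 2 are other spellings of the PheRS subunits, were not. Alternatives covered windows, TSS, nearest genes, overlap, stricter lists and leaving out each replicate. Assignment of summits was tested on simulated data. Software was scipy 1.17.1, pandas 2.3.3 and numpy 2.4.6 under Python 3.11.15, and matplotlib 3.10.9 for plots.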

Additional observations from a re-analysis of the deposited data

How the results depend on the processing

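The count of bound cytoplasmic genes in the IDR list (9) stayed between 6 and 10 under every alternative run: it was 8 within 250 bp, 9 within 1000 and 2000 bp, 6 with each peak given to the nearest TSS only, 6 among the 2299 strongest peaks, 6 to 7 without 1 replicate (counting only peaks that overlap the 4599 strongest regions of both others), and 10 with the PheRS subunits added. The mitochondrial count (3) was 4 within 1000 and 2000 bp, where LeuRS-m entered, and 2 with the nearest TSS only. It was 0 among the 2299 strongest peaks, and 1 to 2 without 1 replicate: 1 (ProRS-m) without replicate 2 or replicate 3, and 2 without replicate 1. Without replicates 2 and 3 in turn, the mitochondrial share therefore rests on 1 gene. The pooled counts ran from 10 to 14 for the cytoplasmic genes (12 as reported) and from 4 to 8 for the mitochondrial genes (6). The share of all protein-coding genes was not worked out under these alternatives and would move with them. These counts therefore do not show how the share of either class compares with that of all genes in each setting. The count of members with a divergent neighbour (23) was 21 within 500 bp and 25 within 2000 bp. The count of bound members whose summit is nearer to another gene (4) ran from 3 to 5. Read depth, the control and cell types were not analysed here, and with 18 and 15 genes a share moves by several points with each gene. Adding the PheRS subunits to the mitochondrial counts was not run, because these subunits are cytoplasmic.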

Other observations

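The spacing of divergent start sites was set beside binding, a measure chosen after its values were seen. The distance from a member's TSS to that of its divergent neighbour had a median of 312 bp at the 11 members bound in the IDR list (8 to 513 bp). It was 144.5 bp at the 12 not bound in that list (35 to 561 bp). The bound members include AspRS, whose spacing of 38 bp is that of its outer start, while its peak lies at an inner start; over the other 10 the median was 340.5 bp. The unbound mitochondrial genes AlaRS-m, AsnRS-m, TyrRS-m and LeuRS-m had spacings of 35, 53, 55 and 166 bp, and the bound ones CysRS-m, ProRS-m and ArgRS-m of 168, 238 and 312 bp. SerRS was bound with a spacing of 8 bp, and HisRS was unbound at 561 bp. Over all protein-coding genes with a divergent neighbour the medians were nearly the same, 295 bp in 1982 bound and 302 bp in 3507 unbound genes. The share bound was 27.9% at spacings of up to 200 bp, 50.6% from 201 to 400 bp and 28.8% from 401 to 1000 bp. Members were bound in 3 of 10 (AspRS among the 3), 4 of 8 and 4 of 5 cases in the same ranges. The counts over all genes can likewise include peaks at another start of the same gene. No test was made of this pattern.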
